A study of Rattus norvegicus with 6 samples.

Results

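Oxidative phosphorylation was read here through the genes of its 5 protein complexes in cultured rat oligodendrocyte precursor cells, or OPCs, which divide and later mature into myelin-forming oligodendrocytes. The set held the rows of the deposited gene table whose names begin with Nduf (complex I), Uqcr (complex III), Cox4 to Cox8 (complex IV) or Atp5 (complex V), the 4 complex II genes Sdha, Sdhb, Sdhc and Sdhd, the electron carrier gene Cycs, and the protein-coding rows of the mitochondrial chromosome. This gave 112 of the 32883 rows, of which 99 were encoded in the nucleus and 13 in mitochondrial DNA (mtDNA). Of these, 103 had enough counts to be tested, 90 nuclear and all 13 of mtDNA, among 14670 tested genes in all.

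The OPCs came from the cerebral cortices of newborn Sprague Dawley rats (P0 in the labels, a slightly wider age range in the study's methods), were shaken off a mixed culture grown with serum, and were then kept in Neurobasal with B27 and N2. One group of 3 libraries received 5 µM ZJU-37, an inhibitor of the kinase RIPK1, and the other 3 received the same volume of its solvent DMSO, for 36 h by the sample labels and for a shorter time by the study's methods. Neither group carried a genetic change. The study calls the libraries biological repeats in one place and plate wells in another, so the p-values below measure only the spread between these samples, which may be technical. Poly-A RNA was sequenced, and all group values are means ± SD of n = 3 libraries.

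The complexes sit in the inner mitochondrial membrane. Complexes I to IV pass electrons from NADH and succinate to oxygen by way of coenzyme Q and cytochrome c, and complexes I, III and IV pump protons, whose return through complex V makes ATP. Complex II is built from nuclear genes alone, whereas the other complexes combine many nuclear subunits with a few that mtDNA encodes. In the oligodendrocyte lineage this pathway supplies ATP for the costly synthesis of myelin lipids, and mature oligodendrocytes are known to lean more on glycolysis than their precursors do.

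Library totals ran from 13935865 to 24097927 counts, at which 3 counts equal 0.124 to 0.215 CPM (counts divided by library size and put on 1 common scale), a floor that covers counting error only. This floor was computed from library totals alone, and all other CPM values are on the scale of edgeR's TMM normalization. Among the lineage markers, Pdgfra, Cspg4, Olig1 and Ptprz1 were called higher with ZJU-37 and Gpr17, Nkx2-2 and Sox10 lower, out of 8 OPC genes that summed to 4041 to 4674 CPM with DMSO and 4465 to 6144 CPM with ZJU-37. The cultures also held RNA of other cells: the summed level of 10 mature oligodendrocyte markers was 11419 to 22762 CPM with DMSO and 4819 to 10074 CPM with ZJU-37, that of 11 microglial markers 2425 to 4213 and 1767 to 3697 CPM, and that of 9 astrocyte markers 1049 to 1683 and 906 to 1360 CPM. Of these markers Cnp and Myrf (oligodendrocyte) and Aldoc (astrocyte) were called lower. With the replicate number as a block, 6 of the 10 oligodendrocyte, 5 of the 8 tested astrocyte and 5 of the 11 microglial markers were called lower. The 8 neuronal markers summed to 750 to 984 and 656 to 892 CPM, those of fibroblasts to 37.1 to 98.3 and 24.1 to 68.7 CPM, those of endothelial cells and pericytes to 17.4 to 24.2 and 12.3 to 18.4 CPM, with Cldn5 at 0, and those of muscle to 26.3 to 38.1 and 23.4 to 34.2 CPM. None of these was called in edgeR, and with the block 3 neuronal, 1 fibroblast and 1 endothelial or pericyte marker were lower. The part of these cell types in the results below was not tested, and in such bulk samples fewer cells of a type and less RNA per cell cannot be told apart.

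Start-site windows of 300 bases (250 before to 50 after the start) were taken from RefSeq for rat build GRCr8 and matched 81 of the 99 nuclear members by symbol or synonym. They are shown because nuclear respiratory genes are textbook targets of the factors NRF1, GABP (an ETS factor) and YY1. The core NRF1 sequence GCATGCGC, searched on both strands, lay in 14.8% of the members' windows and in 2.77% of the windows of all 27457 genes with an entry. The ETS sequence CCGGAAG lay in 27.2% of members and 9.63% of all genes, and the YY1 sequence AANATGGC in 39.5% and 7.80%. A match is a description of letters, not of a bound factor. The YY1 sequence contains ATG, the letters of a start codon, and the windows reach 50 bases past the start. Whether YY1 matches on the gene's own strand are start codons was not tested. Part of the NRF1 sequence is a palindrome, so that matches on both strands can overlap. The Ndufs6 row, a processed pseudogene on chromosome 2, was matched by symbol to the Ndufs6 window on chromosome 1, which holds the YY1 sequence.

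The 250 bases before the start of Cox8a, a complex IV gene that was lower with ZJU-37, hold 2 ETS matches, in capitals, at chr1:213833624-213833873 on the minus strand of GRCr8. The same stretch of Ndufa11, a complex I gene that was not called in any fit, holds overlapping NRF1 matches, at chr9:1637364-1637613 on the plus strand.
Cox8a: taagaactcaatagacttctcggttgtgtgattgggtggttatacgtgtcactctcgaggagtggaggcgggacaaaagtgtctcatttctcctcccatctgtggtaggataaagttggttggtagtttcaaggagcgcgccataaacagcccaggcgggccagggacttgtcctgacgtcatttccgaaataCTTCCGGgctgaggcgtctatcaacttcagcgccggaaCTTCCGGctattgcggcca
Ndufa11: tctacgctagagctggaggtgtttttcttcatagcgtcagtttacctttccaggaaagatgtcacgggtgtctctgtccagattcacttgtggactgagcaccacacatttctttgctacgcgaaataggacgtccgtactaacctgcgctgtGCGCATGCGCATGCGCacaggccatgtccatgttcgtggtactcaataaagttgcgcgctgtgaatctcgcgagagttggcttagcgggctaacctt

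Of the 5 members that were lower with ZJU-37 and had an entry, 4 held the YY1 sequence at or just after the start. The 30 bases around each match are shown with the match in capitals, for Ndufa7 (chr7:15311447-15311476, plus strand), Ndufb8 (chr1:253362897-253362926, minus strand), Ndufs7 (chr7:10110476-10110505, minus strand) and Cox8a (chr1:213833609-213833638, minus strand), where the match reads on the opposite strand. The fifth, Atp5mc1, held none of the 3 sequences. Whether the ATG in the matches of Ndufa7, Ndufb8 and Ndufs7 is the start codon of these genes was not tested.
Ndufa7: ggagcggaaggAATATGGCgtccgctactc
Ndufb8: cggagaaggtgAAGATGGCggcgtcccggg
Ndufs7: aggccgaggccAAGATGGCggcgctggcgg
Cox8a: cggctattgcgGCCATCTTgacttcctgac

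By their median, the nuclear members lay slightly lower with ZJU-37 and the mtDNA-encoded members did not. Of the 103 tested members, 7 were called lower and 0 higher in edgeR's quasi-likelihood test (Benjamini-Hochberg adjusted p under 0.05), and all 7 were nuclear. The 7 make up 6.80% of the members, against 5.58% of all tested genes that were called lower, so the share called lower lay near the background. No member was called higher, against 9.43% of all tested genes. At an unadjusted p under 0.05, 20 members were lower and 3 higher, where 12.5% and 16.2% of all tested genes were. DESeq2 called 9 members lower, among them these 7 and Cox6a1, and 1 higher, Ndufb4, against 7.44% and 10.7% of all tested genes.

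The log2 fold change was negative in 71 of the 90 tested nuclear members, 78.9%, against 54% of all tested genes. Its median over the nuclear members was -0.10, with quartiles of -0.18 and -0.02, against -0.03 over all tested genes, and -0.12, -0.08 and -0.06 when same-numbered libraries were set against each other. The 3 ZJU-37 libraries lay below all 3 DMSO libraries in 26 members, or 25.2%, against 16.2% of all tested genes, and above them in 6, or 5.83%, against 19.0%. Nuclear members are short, with a median length of 718.5 bases against 2333.5 over all tested genes. Among the 1786 tested genes of at most 1000 bases that are no members the median log2 fold change was -0.02, and among the 58 nuclear members of that length it was -0.11.

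The replicate number of the labels paired the libraries. With it as a block in the edgeR fit, 19 members were called lower and 2 higher, which is 18.4% and 1.94% of the members against 15.9% and 16.2% of all tested genes. Among the added lower calls were Ndufa8, Ndufa13, Ndufb7 and Ndufb9 of complex I, Cox4i1, Cox6a1, Cox7c and Mt-co2 of complex IV, and Atp5f1e, Atp5me and Atp5pd of complex V. Leaving out 1 library at a time took the calls from 7 to between 1 and 3. Cox6c was called without any of the 6 libraries, Ndufb8 in 5 of these fits and Ndufv3 in 4, whereas Atp5mc1, Ndufa7, Ndufs7 and Cox8a each lost the call without any one of the libraries.

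**Figure D1:**
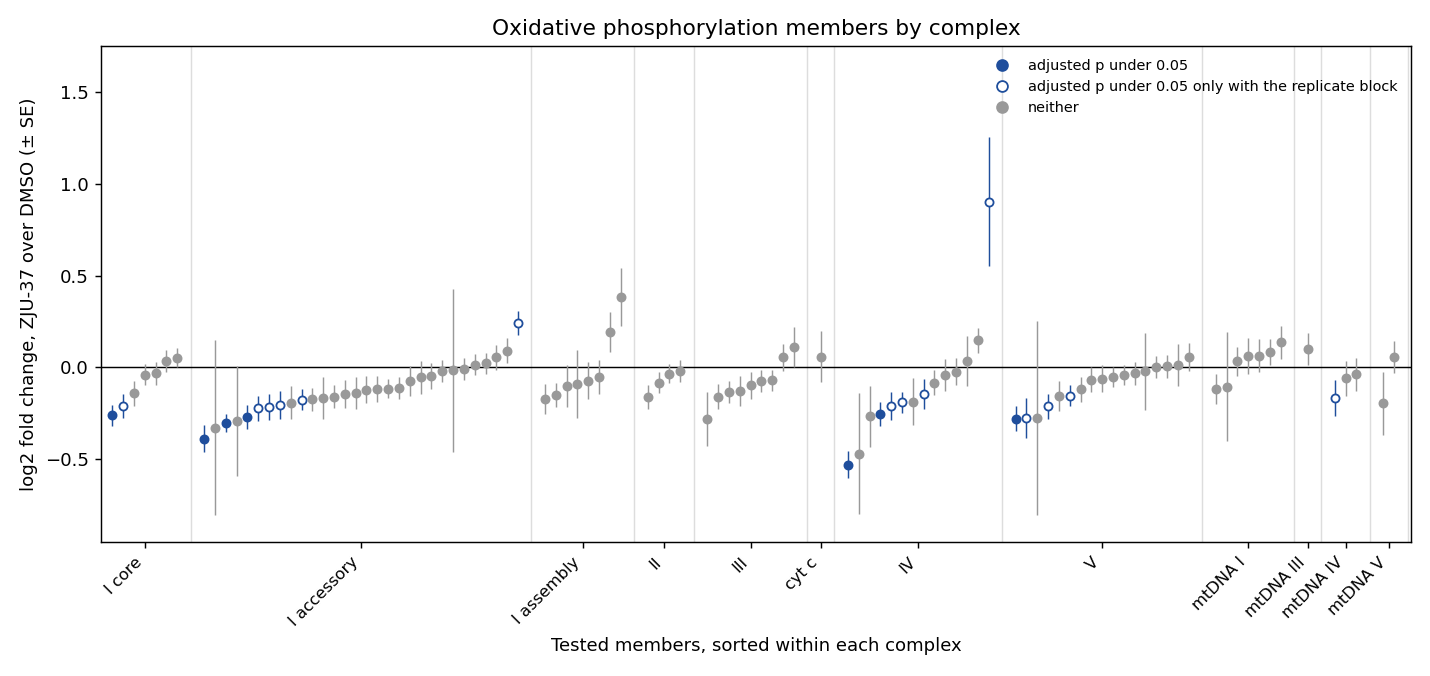
Log2 fold change of ZJU-37 over DMSO (vertical axis) with its standard error for each of the 103 tested members, sorted within each complex, from edgeR over 3 libraries per group. Filled blue points mark the 7 members called lower, open blue points those called only with the replicate block, and most points of complexes I to V lie below 0 while those of mtDNA lie on both sides of it.

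Complex I, the NADH dehydrogenase that feeds electrons into the chain, gave 4 of the 7 calls. Its subunits were 37 of the 90 tested nuclear members. The 4 were 10.8% of these 37, against 5.58% of all tested genes called lower. With the replicate block 9 of the 37 were lower and 1 higher, or 24.3% and 2.7%, against 15.9% and 16.2% of all tested genes. Of the 30 tested accessory subunits of complex I, which surround the catalytic core, 3 were called lower and 25 had a negative log2 fold change. Their median log2 fold change was -0.13. These 30 rows are grouped by gene name and include Ndufa4 and Ndufa4l2, of which Ndufa4 is described again with complex IV. Of its 7 tested nuclear core subunits, which carry the flavin and iron-sulfur clusters, 1 was called lower and the median was -0.04. Per length, in the authors' FPKM (reads scaled to gene length and library size), the most abundant accessory gene was Ndufa13 with a mean of 199 FPKM over the 6 libraries and the least abundant was Ndufa4l2 with 0.976, and the least abundant core gene was Ndufs3 with 44.8.

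Ndufv3, an accessory subunit at the NADH-oxidizing tip of the complex (ENSRNOG00000001182, chromosome 20, 10265806 to 10275304, plus strand, in the table's coordinates, whose build is not given in the sources used here), measured 78.7, 85.4 and 79.5 CPM with DMSO and 60.2, 67.2 and 58.9 CPM with ZJU-37. The groups did not overlap, and the log2 fold change was -0.39 (SE 0.07, adjusted p = 0.0145, edgeR). A further row named Ndufv3 on chromosome 13 lay under 1 CPM in every library, and reads that fit both rows could have been split between them.

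Ndufb8, an accessory subunit of the membrane arm (ENSRNOG00000014078, chromosome 1, 264298669 to 264303762, minus strand), was the steadiest of the called genes. It measured 145, 146 and 145 CPM with DMSO and 118, 117 and 119 CPM with ZJU-37, a fall of 18.9% (log2 fold change -0.30, SE 0.05, edgeR adjusted p = 0.00797). Without ZJU-37 replicate 3 its adjusted p was 0.0554.

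Ndufa7, an accessory subunit of the matrix arm (ENSRNOG00000006939, chromosome 7, 18683553 to 18696330, plus strand), measured 55.7, 58.9 and 54.4 CPM with DMSO and 45.7, 48.7 and 45.9 CPM with ZJU-37. Its log2 fold change was -0.27 (SE 0.06, edgeR adjusted p = 0.0336). Ndufs7, the core subunit that carries the last iron-sulfur cluster before coenzyme Q (ENSRNOG00000024568, chromosome 7, 12318757 to 12326392, minus strand), measured 69.0, 69.4 and 66.4 CPM with DMSO and 55.2, 56.5 and 59.1 CPM with ZJU-37, with a log2 fold change of -0.26 (SE 0.06, edgeR adjusted p = 0.0261). In both genes the highest ZJU-37 library lay below the lowest DMSO library.

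Against the direction of most complex I genes, Ndufb4, an accessory subunit of the membrane arm, measured 76.0, 81.5 and 78.5 CPM with DMSO and 90.0, 99.8 and 89.7 CPM with ZJU-37. The groups did not overlap, but the call depended on the fit. The log2 fold change was 0.24 (SE 0.07), with an adjusted p of 0.0545 in edgeR and of 0.00724 with the replicate block. Ndufs1, the largest core subunit, also had its ZJU-37 libraries above its DMSO libraries, at 118, 115 and 118 against 124, 118 and 122 CPM, but the log2 fold change of 0.05 did not pass the test (edgeR adjusted p = 0.56).

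The 8 Ndufaf rows, which help to assemble complex I and are no part of the finished enzyme, had mean levels between 6.19 FPKM (Ndufaf2) and 38.3 FPKM (Ndufaf8). Their median in a library was 9.33 to 11.3 FPKM, against 86.1 to 96.3 FPKM for the accessory subunits, although a few subunit rows such as Ndufa12 (7.20 FPKM) lay in the same range. None was called in either fit, and their median log2 fold change was -0.08. Ndufaf2 measured 5.70, 6.61 and 4.94 CPM with DMSO and 7.52, 7.13 and 7.85 CPM with ZJU-37 (edgeR adjusted p = 0.164). Its ZJU-37 libraries all lay above its DMSO libraries, opposite to most of the group.

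Complex II, the succinate dehydrogenase shared with the citric acid cycle, had no call among its 4 genes. All 4 had negative values, and their log2 fold changes ran from -0.16 (Sdhc) to -0.02 (Sdhd), and their mean levels from 65.3 FPKM for the flavoprotein Sdha to 149 FPKM for the membrane anchor Sdhc. Sdhc measured 190.6, 183.1 and 171.4 CPM with DMSO and 158.0, 170.6 and 159.5 CPM with ZJU-37. Its ZJU-37 libraries all lay below its DMSO libraries, the nearest pair by a small margin, and its adjusted p was 0.168 in edgeR and 0.0518 with the block.

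Complex III, which moves electrons from coenzyme Q to cytochrome c, also had no call among its 9 tested rows, with a median log2 fold change of -0.10. Its most abundant gene was the small subunit Uqcr11 (200.5 FPKM). The lowest row was the Uqcrb on chromosome 7 (16.3 FPKM), where a row of the same name on chromosome 1 stood at 81.0 FPKM, and counts split between the pair are uncertain. Cycs, which encodes cytochrome c itself, measured 22.1, 19.7 and 16.0 CPM with DMSO and 18.0, 21.0 and 21.2 CPM with ZJU-37, so that its groups overlapped (log2 fold change 0.06, edgeR adjusted p = 0.826).

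Complex IV, the cytochrome c oxidase that reduces oxygen, held the member with the largest fall. Of its 14 tested nuclear rows 2, or 14.3%, were called lower, against 5.58% of all tested genes. With the replicate block 5 were lower and 1 higher, or 35.7% and 7.14%, against 15.9% and 16.2% of all tested genes. The median log2 fold change of its nuclear rows, -0.17, was the lowest of the complexes with more than 1 nuclear member. Cox6c, a small structural subunit (ENSRNOG00000010807, chromosome 7, 74723179 to 74735650, minus strand), measured 162, 161 and 144 CPM with DMSO and 101, 114 and 108 CPM with ZJU-37. This is a fall of 30.7%, with a log2 fold change of -0.53 (SE 0.07, edgeR adjusted p = 0.00447), and leaving out each library in turn gave adjusted p-values of 0.0091 to 0.0254.

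Cox8a, the common form of the smallest subunit (ENSRNOG00000021177, chromosome 1, 222466575 to 222468896, minus strand), measured 253, 265 and 258 CPM with DMSO and 207, 231 and 213 CPM with ZJU-37. Its log2 fold change was -0.25 (SE 0.06, edgeR adjusted p = 0.0456), the weakest of the 7 calls. The call was also lost when libraries were scaled by their totals alone (adjusted p = 0.0517) and when no filter on low counts was used (adjusted p = 0.0625).

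**Figure D2:**
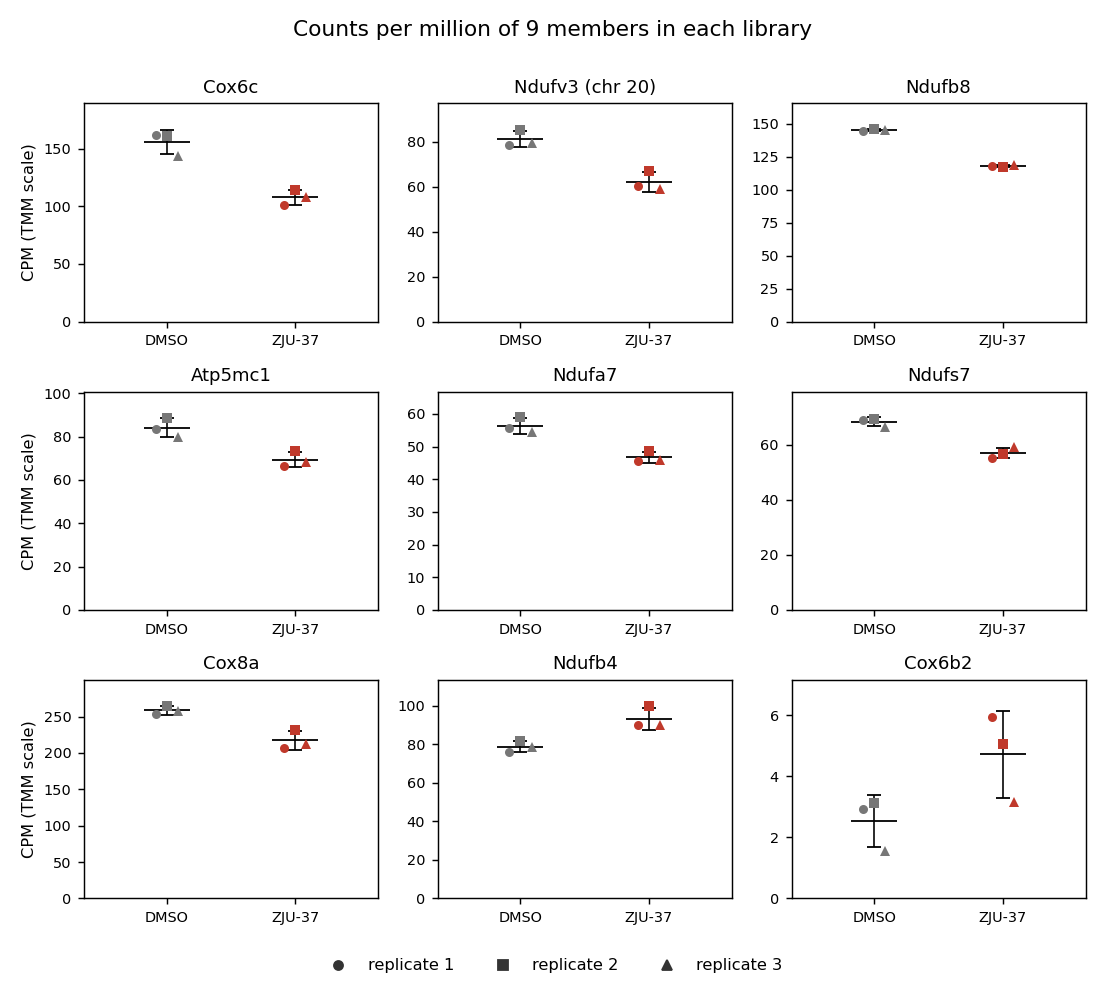
Counts per library scaled to CPM on the TMM scale (vertical axes, from 0) of the 7 members called lower and of Ndufb4 and Cox6b2. On that scale, edgeR called Ndufb4 and Cox6b2 higher with the replicate block and not without it. Symbols are the 3 libraries of each group, bars are mean and SD, and the ZJU-37 libraries of Cox6c sit between 101 and 114 CPM, all below the DMSO libraries at 144 to 162 CPM.

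Several complex IV subunits exist in paralogs that adult tissues use differently, and the common form stood far above the tissue form in each pair measured here. Per length, Cox4i1 stood 537 to 1805 times above Cox4i2, the form known from lung and from low oxygen, of which each library held between 5 and 17 counts. Cox6a1, with 494 FPKM the most abundant nuclear gene of complex IV, stood 192 to 402 times above its heart and muscle form Cox6a2, the lowest tested row of the complex (1.93 FPKM). The other striated muscle forms, Cox7a1 and Cox8b, had 1 count each over all 6 libraries, Cox8c had 1, and Cox7b2 had 0, and Cox7a2 was not analysed here. Ndufa4, now known as a complex IV subunit despite its name, stood 104 to 345 times above its paralog Ndufa4l2, which is known from low oxygen. Cox7a2l, which joins complexes III and IV in supercomplexes, and the row Cox7a2l2 differed by a factor of 0.998 to 1.38.

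Cox6b2, known as the testis form, was low, with 40, 55 and 29 counts with DMSO and 110, 104 and 76 with ZJU-37, or 2.92, 3.11 and 1.54 against 5.95, 5.04 and 3.14 CPM. The lowest ZJU-37 library lay barely above the highest DMSO library in CPM and just below it in FPKM (6.59 against 6.62), and the log2 fold change of 0.90 (SE 0.35) had an adjusted p of 0.146 in edgeR and of 0.00657 with the replicate block. The common form Cox6b1 (the row on chromosome 1) had a log2 fold change of -0.02, and stood 33.3, 30.5 and 56.6 times above Cox6b2 with DMSO and 15.0, 19.6 and 27.7 times above it with ZJU-37, per length. A further row named Cox6b1 on chromosome 2 had 57.1 FPKM and may share reads with the first.

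**Figure D3:**
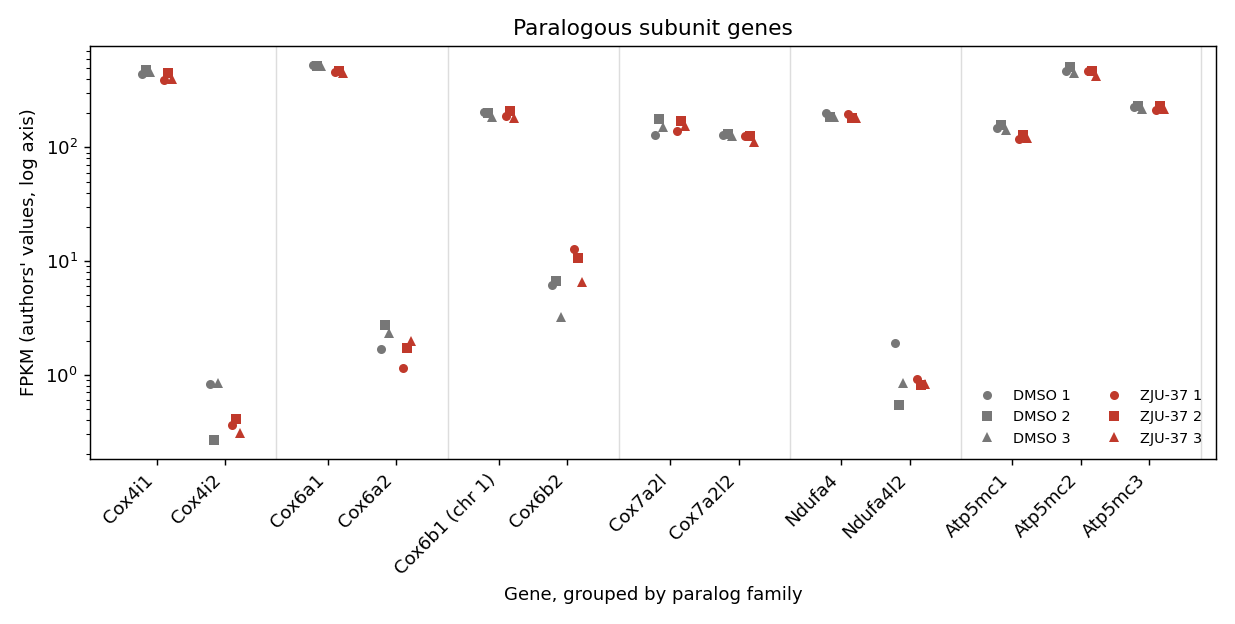
The authors' FPKM values (vertical axis, log scale) of paralogous subunit genes in each library, with 3 DMSO libraries in grey and 3 ZJU-37 libraries in red. The common forms lie above 100 FPKM and Cox4i2, Cox6a2 and Ndufa4l2 lie below 3 FPKM in every library, with Cox6b2 between them.

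Complex V, the ATP synthase, held the most abundant nuclear member, its catalytic beta subunit Atp5f1b at 671 FPKM. Of its 17 rows 1, or 5.88%, was called lower, near the 5.58% of all tested genes, and the median log2 fold change was -0.06. With the replicate block 4 of the 17 were lower, or 23.5%, and 0 higher, against 15.9% and 16.2% of all tested genes. The inhibitor gene Atp5if1, whose product blocks the enzyme when it runs backwards, had overlapping groups (log2 fold change 0.01, edgeR adjusted p = 0.962). The lowest row was Atp5pb, the b subunit of the stalk, with 2.67 FPKM. Its counts were uneven, at 61, 67 and 187 with DMSO and 64, 176 and 75 with ZJU-37, and its span overlaps that of Wdr77 and of a further row, whose part in this level was not tested.

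The called gene was Atp5mc1 (ENSRNOG00000007235, chromosome 10, 83895947 to 83898527, minus strand), 1 of 3 genes whose mature products are the same subunit c of the rotating ring. It measured 83.6, 88.7 and 79.8 CPM with DMSO and 66.2, 73.2 and 68.4 CPM with ZJU-37 (log2 fold change -0.28, SE 0.07, edgeR adjusted p = 0.0384). The other two genes did not pass the test, with log2 fold changes of -0.06 for Atp5mc2 (adjusted p = 0.639) and -0.03 for Atp5mc3 (adjusted p = 0.786). Inside each library, Atp5mc2 stood 3.17, 3.19 and 3.19 times above Atp5mc1 with DMSO and 3.96, 3.64 and 3.54 times with ZJU-37, per length. For Atp5mc3 the ratios were 1.52, 1.47 and 1.54 with DMSO and 1.78, 1.79 and 1.79 with ZJU-37. Neither ratio overlapped between the groups, so Atp5mc1 made up a smaller part of the subunit c transcripts in every ZJU-37 library.

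By their median, the mtDNA-encoded members lay above the nuclear ones, though the ranges of single genes overlapped. The median of their mean levels was 1401 FPKM, against 106 FPKM for tested nuclear members and 11.5 FPKM for all tested genes. Mt-co1, the catalytic core of complex IV, led with 9524 FPKM, followed by Mt-co3 (6478) of the same complex, Mt-atp6 (5447), the proton channel subunit of complex V, and Mt-cyb (3775), the only mtDNA-encoded subunit of complex III. Of the complex I subunits, Mt-nd2 (2490) and Mt-nd1 (2359) were highest, then Mt-nd4l (1401), Mt-nd3 (1047), Mt-nd5 (877), Mt-nd6 (480) and Mt-nd4 (152). In this order the ranges over the 6 libraries overlapped between Mt-nd2 (2386 to 2642 FPKM) and Mt-nd1 (2200 to 2469) and between Mt-nd3 (941 to 1175) and Mt-nd5 (796 to 989).

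Mt-co2, the subunit of complex IV that receives electrons from cytochrome c, stood at only 601 FPKM, with a range (518 to 678) that overlapped that of Mt-nd6 (426 to 554), and Mt-atp8, the accessory subunit of complex V, at 50.1 FPKM. Mt-nd4 was also low beside its neighbours and uneven, with 238, 111 and 124 FPKM with DMSO and 167, 130 and 142 FPKM with ZJU-37. The spans of Mt-nd4 and Mt-nd4l, of Mt-atp6 and Mt-atp8, of Mt-atp6 and Mt-co3, and of Mt-nd5 and Mt-nd6 overlap in the table, and how reads over shared bases, near copies elsewhere in the genome or the opposite strand were counted is not given in the sources used here. The part of the counting in these differences in level was not tested.

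With ZJU-37, none of the 13 was called in edgeR or DESeq2, and 0 had an unadjusted p under 0.05 in edgeR. Their log2 fold changes ran from -0.20 (Mt-atp8) to 0.14 (Mt-nd4l), with a median of 0.03. The 7 complex I genes had a median of 0.06, with 0.08 for Mt-nd1, 0.03 for Mt-nd2, -0.12 for Mt-nd3, -0.11 for Mt-nd4, 0.06 for Mt-nd5 and 0.06 for Mt-nd6. The log2 fold change of Mt-nd4 was 0.32 without DMSO replicate 1 and 0.0045 without ZJU-37 replicate 2, so its sign rested on single libraries. Mt-cyb had 0.10, Mt-co1 -0.06, Mt-co3 -0.04 and Mt-atp6 0.06. Mt-co2 measured 464, 464 and 385 CPM with DMSO and 394, 413 and 360 CPM with ZJU-37, with overlapping groups and a log2 fold change of -0.17 (SE 0.10, edgeR adjusted p = 0.324), and was called lower only with the replicate block (adjusted p = 0.0334). Mt-nd1 was the one gene of the 13 whose groups did not overlap, at 2281, 2211 and 2115 against 2288, 2387 and 2318 CPM (edgeR adjusted p = 0.52). It makes up 7.69% of the 13, below the 19.0% of all tested genes whose ZJU-37 libraries all lay higher. None of the 13 had all ZJU-37 libraries lower, against 16.2% of all tested genes.

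**Figure D4:**
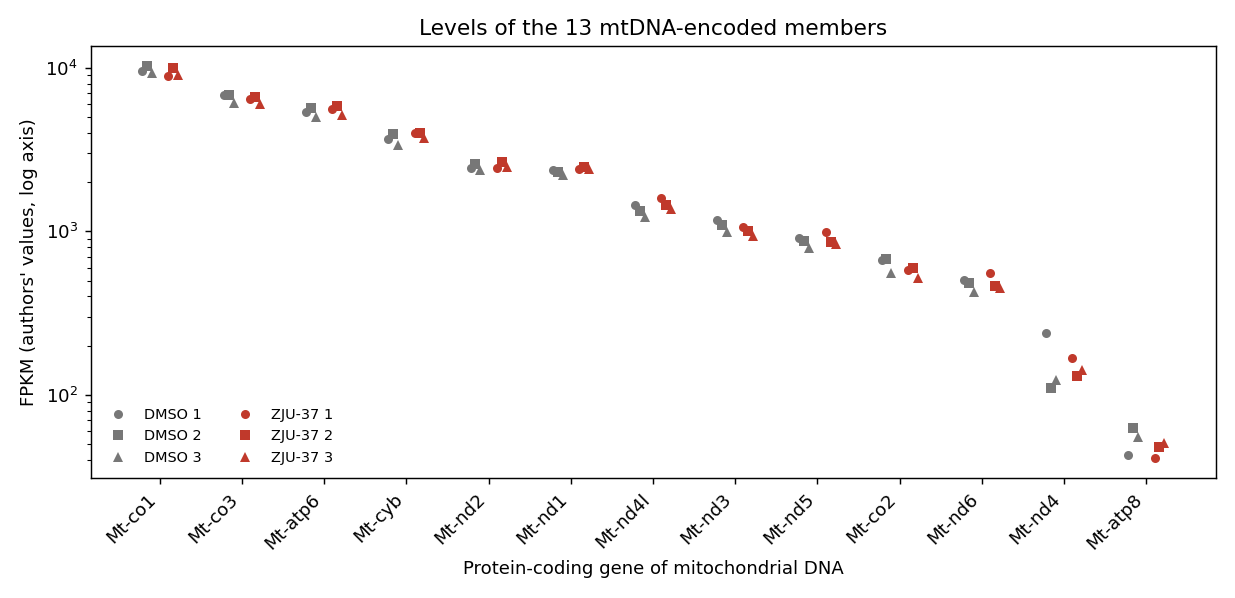
The authors' FPKM values (vertical axis, log scale) of the 13 mtDNA-encoded members in each library, ordered by mean level, with 3 DMSO libraries in grey and 3 ZJU-37 libraries in red. Levels span from 50.1 FPKM for Mt-atp8 to 9524 FPKM for Mt-co1, and the groups overlap in every gene but Mt-nd1.

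The ratio of mtDNA-encoded to nuclear member counts was higher in every ZJU-37 library. The mtDNA-encoded members took 3.59%, 3.70% and 3.43% of all counts with DMSO and 3.69%, 3.74% and 3.50% with ZJU-37, or 3.58% ± 0.13 and 3.64% ± 0.12, so that the groups overlapped. The nuclear members took 1.03%, 1.04% and 1.02% with DMSO and 1.01%, 0.994% and 0.962% with ZJU-37. For each nuclear member count there were 3.48, 3.55 and 3.37 mtDNA-encoded counts with DMSO and 3.64, 3.76 and 3.64 with ZJU-37, a ratio of 3.47 ± 0.09 against 3.68 ± 0.07 without overlap. Without Mt-co1, which alone gave 38.7% to 42.5% of the mtDNA-encoded counts, the ratio was 2.06, 2.05 and 1.94 against 2.23, 2.22 and 2.16. These sums are dominated by the most abundant genes and are given as descriptions, with no test.

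**Figure D5:**
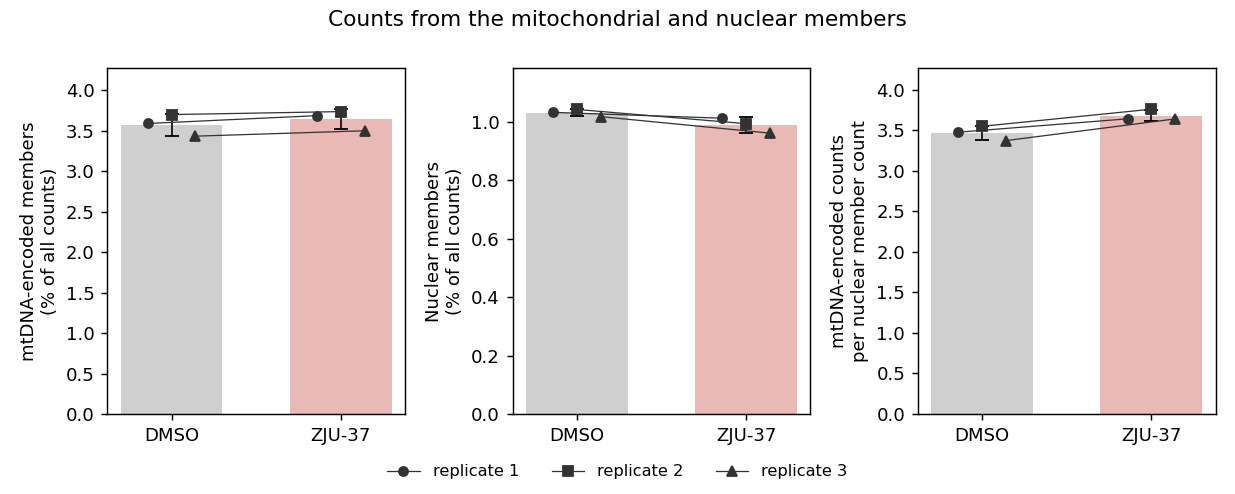
Share of all counts from the mtDNA-encoded members (left, percent) and from the nuclear members (middle, percent), and mtDNA-encoded counts per nuclear member count (right), from 0. Bars are group means with SD, symbols joined by lines are libraries of the same replicate number, and the ratio is higher in each ZJU-37 library (3.64 to 3.76) than in each DMSO library (3.37 to 3.55).

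Nuclear members with and without the start-site sequences were set side by side as descriptions. The median log2 fold change was -0.05 in the 11 tested members with the NRF1 sequence and -0.11 in the 64 without it. For the ETS sequence it was -0.10 in 21 members and -0.07 in 54, and for the YY1 sequence -0.13 in 30 members and -0.06 in 45. Of the 5 members that were lower and had an entry, 0 held the NRF1 sequence, 1 the ETS sequence and 4 the YY1 sequence.

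The proteins that build, feed and copy this system were read from lists of named genes, 12 of which passed the edgeR test. Of the 160 tested genes of these lists, 5 were called higher and 7 lower, or 3.12% and 4.38%, both below the 9.43% and 5.58% of all tested genes. Among 10 further assembly factors of complex I, Tmem186 was called lower (log2 fold change -0.35, adjusted p = 0.0413). For complex II, Sdhaf2, which helps to attach the flavin to Sdha, was lower (-0.28, adjusted p = 0.0449) among 3 tested. For complex III, Bcs1l, which inserts the iron-sulfur protein Uqcrfs1, was higher (0.36, adjusted p = 0.0408) among 7 genes. For complex IV, Pet100 was lower (-0.31, adjusted p = 0.0379) among 18 genes, and the 3 assembly factors of complex V had no call in either fit.

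Of 13 genes of coenzyme Q synthesis, Coq8b (-0.32, adjusted p = 0.0145) and Coq10a, which binds coenzyme Q (-0.44, adjusted p = 0.0439), were lower in edgeR. None of 9 tested carriers and channels was called, and with the block Mpc2 of the pyruvate carrier (log2 fold change -0.24, adjusted p = 0.0106) and the uncoupling protein gene Ucp2 (-0.27, adjusted p = 0.00711) were lower. Of 74 tested genes of the mitochondrial ribosome, 2 were higher, Mrpl13 (0.29, edgeR adjusted p = 0.0356) and Mrpl14 (0.37, adjusted p = 0.0249), and 2 lower, Mrps7 (-0.42, adjusted p = 0.011) and Mrpl34 (-0.29, adjusted p = 0.0485), with a median of -0.02. With the block the lists held 29 calls in place of 12, 12 higher and 17 lower, or 7.50% and 10.6% of their genes against 16.2% and 15.9% of all tested genes. The further genes were Lyrm7, Uqcc2, Cox14, Cox17, Coq8a, Mrpl57 and Mrps15, all lower, Coq3 and Mrps27, both higher, and those of the next list.

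The list of 23 genes of mitochondrial biogenesis and mtDNA expression had a median log2 fold change of 0.06, and 2 of its genes, or 8.70%, were called higher, near the 9.43% of all tested genes. Polg, the polymerase that copies mtDNA, measured 112, 109 and 104 CPM with DMSO and 207, 182 and 193 CPM with ZJU-37 (log2 fold change 0.84, SE 0.07, edgeR adjusted p = 0.000549). In the table its span ends 47 bases from that of Fanci, a DNA repair gene on the opposite strand that rose by 1.14 (adjusted p = 0.00038), and whether reads that pass the end of Fanci were counted to Polg was not tested. Pprc1, a coactivator related to PGC-1alpha, was also called higher (0.21, adjusted p = 0.0456).

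With the replicate block, 7 genes of this list were called higher and 1 lower, or 30.4% and 4.35% of its genes, against 16.2% and 15.9% of all tested genes. The added higher calls were the nuclear regulators Nrf1 (0.21, adjusted p = 0.0432) and Gabpa (0.18, adjusted p = 0.0305), the mtDNA packaging factor Tfam (0.18, adjusted p = 0.0427), the mtDNA nuclease Mgme1 (0.46, adjusted p = 0.0169) and the mitochondrial topoisomerase Top1mt (0.42, adjusted p = 0.028). The span of Gabpa overlaps that of the complex V gene Atp5pf in the table. The lower call was Ppargc1a, which encodes the coactivator PGC-1alpha, at 5.70, 4.07 and 5.79 CPM with DMSO and 3.68, 3.49 and 3.27 CPM with ZJU-37 (log2 fold change -0.56, adjusted p = 0.0482 with the block and 0.104 in edgeR without it).

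The 9 members left untested had at most 17 counts in a library. Ndufa1, a subunit that a working complex I is known to need, had 5, 5 and 3 counts with DMSO and 4, 2 and 7 with ZJU-37. Its row is 213 bases long, and the part of this length and of the counting of reads in its low counts was not tested. The other untested members were Ndufs6, which the table lists as a processed pseudogene, Ndufa10l1 on chromosome 6, Cox6c-ps1 and the paralogs Cox4i2, Cox7a1, Cox7b2, Cox8b and Cox8c.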

How the data were processed

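The authors deposited 1 table with raw counts of reads per gene, made with featureCounts, and FPKM values, computed by the authors from counts, gene length and a library total (0.979 to 1.03 times the sum of the counts). The submitters' processing notes name HISAT2 2.0.5, StringTie 1.3.3b and featureCounts 1.5.0. The genome build is not given in the sources used here, nor is the strand setting. The table's fold changes, p-values and group means come from the authors' own DESeq2 comparison and were not used.

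Rows with low counts were removed by filterByExpr and libraries were scaled by TMM, after which all 6 were tested with edgeR 4.0.16 (glmQLFit, robust, and glmQLFTest) in R 4.3.3, with Benjamini-Hochberg adjustment over all 14670 tested genes and a threshold of 0.05. The code was tested on simulated data. Fold changes are ZJU-37 over DMSO. FPKM served for levels between genes, for ratios of paralogs and in alternatives. The members and all gene lists were chosen with earlier results of these data known, so no list was tested as a set.

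Named with values were every mtDNA-encoded member, every nuclear member past the threshold, the most and least abundant tested nuclear member of each complex, paralog families, and every gene of the pathway lists past the threshold. Ndufs1, Ndufb4, Ndufaf2, Atp5if1, Cox5b and the genes called only with the block were added after their values were seen. Values of 1 member are not reported here.

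The labels give replicate numbers 1 to 3 in both groups. After the group means were subtracted, libraries of the same number correlated across genes with r = 0.39, 0.31 and 0.33, and those of other pairs with -0.27 to -0.01 (genes are not independent replicates), so the numbers were taken to pair the libraries. The edgeR fit had no block, since the study's methods name a comparison of both groups in DESeq2 and state no block. Alternatives were the replicate block, DESeq2 1.42.0, limma 3.58.1 (voom, and on log2 of FPKM + 1 or + 0.1), 3 other normalizations, 2 other filters and leaving out each library. No 2 libraries agreed within sampling noise (chi-square of at least 11.3 per degree of freedom). Start-site windows came from RefSeq (GRCr8), and a gene with several starts counted once.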

Additional observations from a re-analysis of the deposited data

How the results depend on the processing

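The 7 lower calls became 19 with the replicate block and 1 to 3 when 1 library was left out, fewest without ZJU-37 replicate 3. Calls of higher members went from 0 to 1 with DESeq2 and with library totals only (Ndufb4 in both) and to 2 with the block, and calls among the mtDNA-encoded members from 0 to 1 with the block. The 12 calls of the pathway lists became 29 with the block, 5 without a filter on low counts and 1 to 8 when 1 library was left out, fewest without DMSO replicate 2 or ZJU-37 replicate 3. The same 7 members were called by voom, with DESeq2 size factors in edgeR, with normalization on nuclear chromosomes, with at least 10 counts in every library and by limma on FPKM with either pseudocount, and DESeq2 called 10 members, among them these 7, Cox6a1 and Ndufb4. The median log2 fold change of the nuclear members stayed negative in every setting run, from -0.11 to -0.07, whereas that of the mtDNA-encoded members lay between -0.0043 and 0.064 and changed sign without DMSO replicate 3 or ZJU-37 replicate 1. Among single members, leaving out 1 library changed the sign of 3 uncalled mtDNA-encoded genes, with log2 fold changes of -0.31 to 0.32 for Mt-nd4, -0.091 to 0.022 for Mt-co3 and -0.0050 to 0.14 for Mt-nd6. With library totals only, the median of all genes moved from -0.03 to 0.0029. The block removed none of the 7 calls. Why the calls moved was not tested, beyond the fewer libraries in each fit that left one out. With 3 libraries per group, the spread limits what changes of this size can be called.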

Other observations

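RNA of the mitochondrial chromosome that encodes no protein, its ribosomal and transfer RNAs, took 0.0863%, 0.0882% and 0.0855% of all counts with DMSO and 0.0594%, 0.0653% and 0.0694% with ZJU-37. The groups did not overlap, whereas the share of the protein-coding mtDNA genes in the same libraries did. The libraries were selected for poly-A tails, so these RNAs were measured only as far as they passed that step, and the difference was given no test.

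Among nuclear members of complex IV, Cox5b, which binds zinc in the finished oxidase, was uneven, with 91.7, 106 and 113 CPM with DMSO and 103, 88.5 and 66.9 CPM with ZJU-37. The lowest value was that of ZJU-37 replicate 3, and the gene was not called in either fit (adjusted p = 0.36 in edgeR and 0.453 with the block). Cox7b had higher values in every ZJU-37 library, with 68.4, 72.9 and 68.2 CPM with DMSO and 82.3, 76.1 and 73.5 CPM with ZJU-37, and was not called either (adjusted p = 0.209 and 0.0981).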
